A study of Mus musculus with 6 samples.

Results

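The transcripts described here are 10 genes of the NRF2 antioxidant response: Nfe2l2, Keap1, Nqo1, Hmox1, Gclc, Gclm, Slc7a11, Gsr, Txnrd1 and Srxn1. They were taken by symbol from a deposited table of 17256 mouse genes. All 10 were in the table, and all 10 passed the filter on low counts as 10 of 13071 tested genes. The libraries came from the epithelium of the antrum, the distal part of the stomach, of C57BL/6 mice in which atrophic gastritis had been induced. Both groups had received MNNG, an alkylating carcinogen, and a drug that the labels spell Ranitine for 20 weeks. In the vehicle group (3 libraries) vehicle followed for 2 weeks, and in the PEEPA-P5 group (3 libraries) PEEPA-P5 was given by gavage for 2 weeks. No library without induced gastritis is part of the comparison, and the labels used here give no age of the mice. Whether each library is a separate mouse is not stated in the labels, so part of the spread between libraries behind the p-values may be technical. Genes that mark the sex or the genotype, given below, set the library numbered 3 of each group apart from the rest.

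NRF2, the product of Nfe2l2, is a transcription factor that is made and destroyed continuously. KEAP1 holds it in the cytoplasm and hands it to the CUL3 and RBX1 ubiquitin ligase, and electrophiles or oxidants that modify cysteines of KEAP1 stop this destruction. NRF2 then enters the nucleus, pairs with a small MAF protein and binds antioxidant response elements near genes for glutathione synthesis, thioredoxin recycling, quinone reduction and heme breakdown. Because NRF2 is controlled largely as a protein, the level of its messenger RNA is not a reading of its activity, and its target genes are the usual readout. In the stomach, the surface epithelium meets acid, dietary electrophiles and, in this model, an alkylating agent.

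An antioxidant response element has the core TGACNNNGC, where N is any base. Promoter windows of 300 bases were on hand in RefSeq (build GRCm38.p6) for 7 of the 10 genes, with 250 bases before the annotated start and 50 after it. Gclc, Gsr and Hmox1 had no window. The core, searched on both strands, was in the window of 4 of these 7 genes (Nfe2l2, Gclm, Srxn1 and Txnrd1), against 14.0% of the 27025 genes with a window. A gene can have more than 1 window, and by window it was 4 of 9 against 12.4%. Among further genes of the pathway, described below, 17 of 87 with a window held the core, or 19.5%. The stretches around it are shown for Gclm, which encodes a glutathione synthesis subunit, and for Txnrd1, which encodes thioredoxin reductase. Nqo1, the most abundant of the 10 transcripts, is shown with the 60 bases before its start, and neither the core nor TGANTCA was in its window. Srxn1 is shown for its 2 copies of TGANTCA, the sequence bound by AP-1 factors, whose letters can overlap those of the core. Capitals mark the core, which stands on the opposite strand in Gclm and Txnrd1, and in Srxn1 the copies of TGANTCA.
Gclm, chr3:122245393-122245461, plus strand: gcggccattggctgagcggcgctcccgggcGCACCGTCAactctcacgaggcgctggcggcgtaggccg
Txnrd1, chr10:82859084-82859152, plus strand: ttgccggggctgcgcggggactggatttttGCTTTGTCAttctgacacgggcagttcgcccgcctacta
Srxn1, chr2:152105392-152105515, plus strand: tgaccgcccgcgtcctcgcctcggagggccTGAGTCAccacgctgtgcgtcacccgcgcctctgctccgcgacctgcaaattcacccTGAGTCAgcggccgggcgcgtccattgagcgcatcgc
Nqo1, chr8:107403206-107403265, minus strand: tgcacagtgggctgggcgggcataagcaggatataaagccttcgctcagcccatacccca

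The matches in Gclm and Txnrd1 began 134 and 92 bases before the start, and the 2 sites of Srxn1 began 102 and 45 bases before it. The core match of Srxn1 lay after its start, and that of Nfe2l2 began 240 bases before the annotated start. The bases after that start were not found near the beginning of any GENCODE M21 transcript of Nfe2l2, unlike those of the other windows. The Nfe2l2 window and its distance are therefore uncertain. TGANTCA was in the window of 1 of the 7 genes and of 8.97% of all genes. Txnrd1 has 3 annotated starts, and the core was in the window of 1 of them. Only TGACNNNGC was counted as the core, so the letters TGAGTCAGC at the Srxn1 site 45 bases before the start were not. A match describes letters only, and a window without one says nothing about elements farther away.

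Total counts per library ran from 16388852 to 16903559, and the labels give no sex. Libraries stood apart in genes that mark the sex or the genotype of the animal, which were chosen after their values had been seen. The Y-linked genes Ddx3y, Kdm5d, Eif2s3y and Uty together had 1830 to 2203 counts in 5 libraries and 12 counts in the library labelled PEEPA-P5 3. Hbb-bs, a beta globin gene of the haplotype that C57BL/6 mice carry, had 206, 600, 137 and 135 counts in vehicle 1, vehicle 2, PEEPA-P5 1 and PEEPA-P5 2, but 6 in vehicle 3 and 21 in PEEPA-P5 3. Hbb-b1, a beta globin gene of the other common haplotype, had at most 1 count in the first 4 of these and 551 and 30 counts in vehicle 3 and PEEPA-P5 3. The strain label is the same for all 6 libraries. For some of the genes, values are therefore also given without PEEPA-P5 3 or without both libraries numbered 3. Antral surface markers were abundant in CPM (counts scaled to library size with TMM factors). Muc5ac, Tff1, Gkn1, Gkn2, Gkn3 and Psca summed to 135514, 115757 and 135961 CPM in vehicle 1, 2 and 3. In PEEPA-P5 1, 2 and 3 the sum was 147269, 146888 and 180881 CPM, each above all vehicle libraries. Taken singly, 4 of the 6 had groups that did not overlap, against 20.4% of all tested genes. Markers of squamous epithelium summed to 60.4, 44.7 and 51.2 CPM with vehicle and to 71.6, 82.0 and 101 CPM with PEEPA-P5. The part of these cells in the values of other genes was not tested. Gast, the gastrin gene of antral G cells, was at 1219 to 1859 CPM in vehicle 1 and 2, at 1004 and 1460 CPM in PEEPA-P5 2 and 1, and at 135 and 48.0 CPM in vehicle 3 and PEEPA-P5 3. Gast is 1 of 6 antral gland markers, which summed to 16601, 16767 and 15412 CPM with vehicle. With PEEPA-P5 they summed to 17764, 17264 and 17257 CPM. Genes of this list went different ways in PEEPA-P5 3: Epcam and Krt8 were highest there, at 282 and 8506 CPM, and Muc6 was lowest, at 463 CPM.

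The 10 transcripts differed widely in abundance, in the same order at the top and the bottom in both groups. On the length-scaled deposited TPM, which allows genes to be compared with each other, Nqo1, the NADPH-dependent quinone reductase, was highest at 726 ± 138 TPM (SD, n = 6 libraries), rank 149 of all genes in the table. Nfe2l2 followed at 258 ± 47.2 TPM, rank 356. In all 6 libraries Nqo1 was above Nfe2l2, and Nfe2l2 above each of the rest, without overlap of their ranges.

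Behind them came a group of glutathione and thioredoxin genes with overlapping ranges. Gclc, the catalytic subunit of the first enzyme of glutathione synthesis, was at 56.4 to 98.1 TPM. Txnrd1, at 48.3 to 75.5 TPM, and Gsr, at 51.96 to 76.3 TPM, swapped order between libraries, with Txnrd1 above Gsr in 3 of 6. Gclm, the regulatory partner of Gclc, was at 40.7 to 56.7 TPM. Srxn1, the enzyme that repairs over-oxidized peroxiredoxins, was at 29.9 to 42.4 TPM, below Gclm in all 6 libraries although their ranges overlapped.

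Keap1, the NRF2 inhibitor, was the steadiest of the 10, at 17.3 to 19.8 TPM. Hmox1, the inducible heme oxygenase, was at 9.42 to 19.8 TPM and above Keap1 in 1 of 6 libraries. Slc7a11, the cystine importer that feeds glutathione synthesis, was lowest at 1.63 to 4.26 TPM, with a coefficient of variation over libraries of 35.9% against 5.21% for Keap1. At 242 to 596 counts per library Slc7a11 was still well counted, and Hmox1 had 212 to 451 counts.

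**Figure D1:**
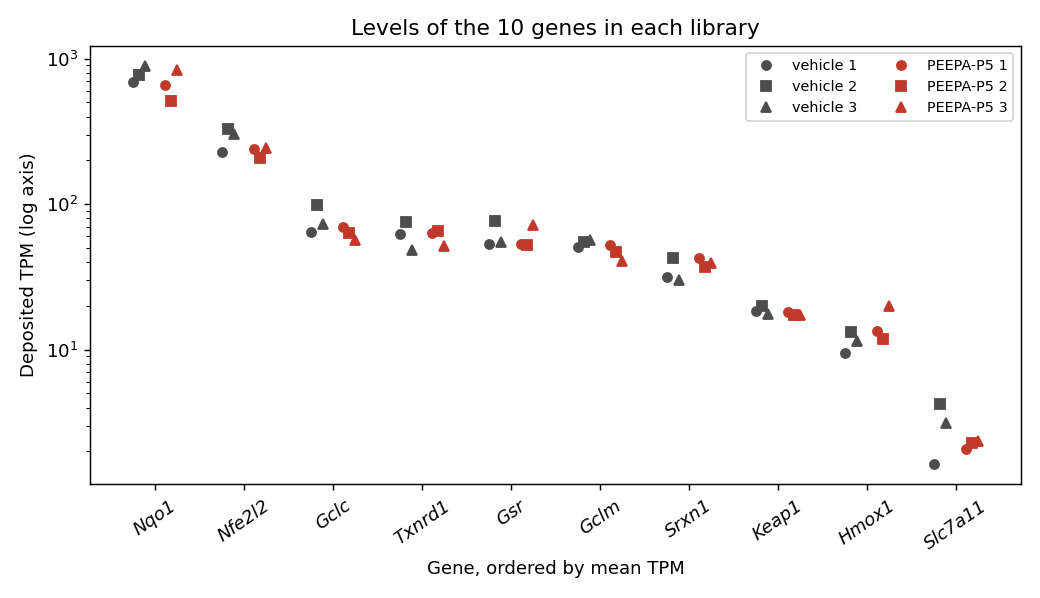
Deposited TPM of the 10 genes in each of the 6 libraries, on a log axis, with genes ordered by mean TPM and a symbol for each library number. Nqo1 lies between 509 and 892 TPM and Slc7a11 between 1.63 and 4.26 TPM, and in each gene the vehicle and PEEPA-P5 points overlap or interleave.

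The main comparison asks whether the antioxidant genes differed between gastritis mice given PEEPA-P5 and those given vehicle. None of the 10 passed the threshold: edgeR's quasi-likelihood test, adjusted over all 13071 genes, called 0 of 10, where it called 0% of all genes. DESeq2, which called 0.834% of all genes, and limma-voom also called 0 of the 10. At an unadjusted p under 0.05 there was 1 of 10, Srxn1, which was higher with PEEPA-P5. Of all tested genes 12.1% were at such a p, 5.92% higher and 6.14% lower. The share over all genes moved with the libraries used. The count among the 10 was 2 without vehicle 1 or PEEPA-P5 2, where 15.6% and 12.7% of all genes were at such a p. It was 0 without vehicle 3, PEEPA-P5 1 or PEEPA-P5 3, where the shares were 5.72%, 7.55% and 8.76%, and 1 without vehicle 2, where it was 5.43%. In 0 of 10 did the PEEPA-P5 libraries all lie on one side of the vehicle libraries, against 20.4% of all tested genes. Groups of fewer libraries overlap less often by construction: with 1 library left out the count was 1 to 3 of 10, and the share of all tested genes 25% to 37.5%. Of the 10, 4 had a higher and 6 a lower fitted mean with PEEPA-P5 (2 and 8 on log2 TPM), and the median log2 difference was -0.060, against -0.0047 over all tested genes. Without vehicle 3 that median was 0.012, and without PEEPA-P5 2 it was 0.044.

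The regulators come first. Nfe2l2 was at 498, 646 and 745 CPM in vehicle 1, 2 and 3 and at 549, 457 and 628 CPM in PEEPA-P5 1, 2 and 3. The highest and the second highest libraries were vehicle, the lowest was PEEPA-P5 2, and the groups overlapped. The log2 difference was -0.21 with a standard error of 0.18 (95% interval -0.64 to 0.22, edgeR adjusted p = 0.637). With 1 library left out it ran from -0.35 without vehicle 1 to -0.07 without vehicle 3, and it was -0.32 without PEEPA-P5 3 and -0.09 without PEEPA-P5 2.

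Keap1 showed almost the same level in both groups, at 54.9 ± 2.47 CPM with vehicle and 54.7 ± 4.07 CPM with PEEPA-P5 (SD, n = 3 each). Its log2 difference was -0.01 with the narrowest interval of the 10, from -0.23 to 0.22 (edgeR adjusted p = 0.981). The ratio of Nfe2l2 to Keap1 in TPM was 15.4 ± 2.71 with vehicle and 13.0 ± 1.09 with PEEPA-P5 (exact permutation p = 0.3, two-sided, n = 3 each, adjusted p = 0.6 over the 2 ratios examined, where the smallest possible p is 0.1).

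Nqo1, the most often used readout of NRF2, was at 874, 877 and 1262 CPM with vehicle and at 872, 652 and 1262 CPM with PEEPA-P5. Within each group the library numbered 3 was highest, and these were level between groups. Vehicle 1, vehicle 2 and PEEPA-P5 1 were level too, and PEEPA-P5 2 was the lowest library. The log2 difference was -0.11 with a standard error of 0.26 (edgeR adjusted p = 0.865). Without PEEPA-P5 3 it was -0.39, without PEEPA-P5 2 it was 0.09, and without vehicle 3 it was 0.08.

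Hmox1, which opens the heme ring and releases iron, biliverdin and carbon monoxide, had the largest difference of the 10 with all libraries, but not without PEEPA-P5 3. It was at 12.2, 15.3 and 16.5 CPM with vehicle and at 18.1, 15.5 and 30.3 CPM with PEEPA-P5. PEEPA-P5 3 stood far above the other 5 libraries, and PEEPA-P5 2 lay within the vehicle range. The log2 difference was 0.54 with a standard error of 0.27 (95% interval -0.09 to 1.17, edgeR adjusted p = 0.453). Leaving out PEEPA-P5 3 brought it to 0.20, smaller in size than the values of Slc7a11, Nqo1, Nfe2l2, Srxn1 and Gclc in the same fit, and leaving out both libraries numbered 3 brought it to 0.29.

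Macrophages that clear red cells express Hmox1 in many tissues. Their markers, and those of other cells outside the epithelium, were summed in the same libraries. In bulk samples, fewer cells of a type and less RNA per cell cannot be told apart. All 12 macrophage markers in the table were detected, and they summed to 61.8, 65.7 and 36.1 CPM with vehicle and to 37.9, 63.8 and 14.9 CPM with PEEPA-P5. The lowest sum was that of PEEPA-P5 3, where Adgre1 (F4/80) had 1 count and Csf1r 3 counts. Other markers were less depleted there: Cd68 had 52 and Cd14 79 counts, and Cd14 was at 5.31 CPM against 4.42 CPM in vehicle 3. The 9 erythroid markers summed to 24.3, 75.6 and 87.2 CPM with vehicle and to 21.7, 19.0 and 8.87 CPM with PEEPA-P5, with the same library lowest. That library was also lowest for fibroblast markers, at 25.1 CPM against 153 to 376 CPM in the other 5, for endothelial markers, at 7.06 against 27.0 to 55.6 CPM, and for smooth muscle markers, at 19.2 against 90.1 to 274 CPM. The part of these cells in the Hmox1 values was not tested.

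**Figure D2:**
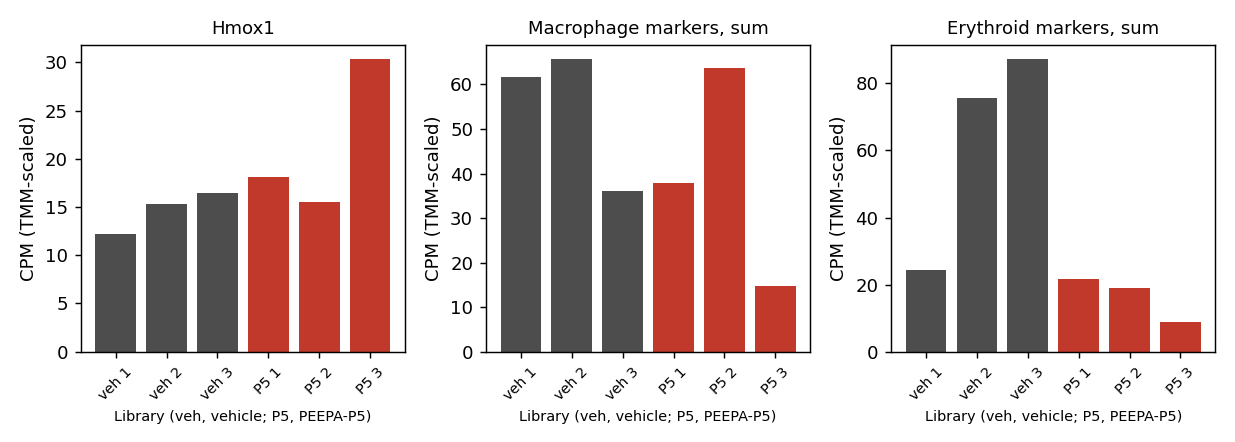
Hmox1 and the summed macrophage and erythroid markers in each library, in TMM-scaled CPM, with bars from 0 (veh, vehicle; P5, PEEPA-P5). PEEPA-P5 3 has the highest Hmox1, at 30.3 CPM, and the lowest sums of both marker lists, at 14.9 and 8.87 CPM.

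The glutathione genes had lower means with PEEPA-P5 in 3 of the 4 members of this arm. Gclc was at 193, 268 and 244 CPM with vehicle and at 212, 190 and 194 CPM with PEEPA-P5. The 3 PEEPA-P5 libraries lay close together, near vehicle 1 and below vehicle 2 and 3. The log2 difference was -0.24 with a standard error of 0.14 (95% interval -0.56 to 0.08, edgeR adjusted p = 0.487), and it ran from -0.36 without vehicle 1 to -0.14 without vehicle 2.

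Gclm was at 90.6, 88.0 and 112 CPM with vehicle and at 96.4, 84.8 and 85.6 CPM with PEEPA-P5, and its log2 difference was -0.12, with a standard error of 0.12 (edgeR adjusted p = 0.673). Without vehicle 3, its highest library, the log2 difference was -0.0072. The catalytic and the regulatory subunit kept a similar proportion in 5 of 6 libraries. The TPM ratio of Gclc to Gclm was 1.27 to 1.39 in those 5 and 1.78 in vehicle 2 (exact permutation p = 1 between groups, two-sided, n = 3 each, adjusted p = 1 over the 2 ratios).

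Slc7a11 was at 13.9, 32.2 and 30.1 CPM with vehicle and at 17.8, 19.6 and 23.7 CPM with PEEPA-P5. Vehicle 1 was the lowest of all 6 libraries and the other vehicle libraries were the highest, so the vehicle group spanned the PEEPA-P5 group. The log2 difference was -0.32 with a standard error of 0.31 (95% interval -1.05 to 0.41, edgeR adjusted p = 0.667). It was -0.61 without vehicle 1, -0.11 without vehicle 2 and -0.18 without vehicle 3.

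Gsr, the reductase that regenerates glutathione from its oxidized form with NADPH, was at 126, 163 and 145 CPM with vehicle and at 131, 124 and 202 CPM with PEEPA-P5. PEEPA-P5 3 was the highest library, and the remaining PEEPA-P5 libraries lay near vehicle 1, the lowest of its group. The log2 difference of 0.08 (standard error 0.20, edgeR adjusted p = 0.885) became -0.17 without PEEPA-P5 3.

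The thioredoxin arm holds Txnrd1 and Srxn1. Txnrd1, the selenoenzyme that reduces thioredoxin, was at 193, 209 and 166 CPM with vehicle and at 203, 201 and 187 CPM with PEEPA-P5, inside the vehicle range in all 3. Its log2 difference was 0.06, with a 95% interval from -0.20 to 0.32 (edgeR adjusted p = 0.837).

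Srxn1 was at 79.2, 95.3 and 83.7 CPM with vehicle and at 110, 93.8 and 117 CPM with PEEPA-P5. PEEPA-P5 1 and 3 lay above all vehicle libraries, and PEEPA-P5 2 lay just below vehicle 2. The log2 difference was 0.31 with a standard error of 0.12, and its 95% interval, not adjusted for the number of genes, ran from 0.03 to 0.60 (edgeR adjusted p = 0.412). It was 0.25 without PEEPA-P5 3 and 0.23 without both libraries numbered 3.

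**Figure D3:**
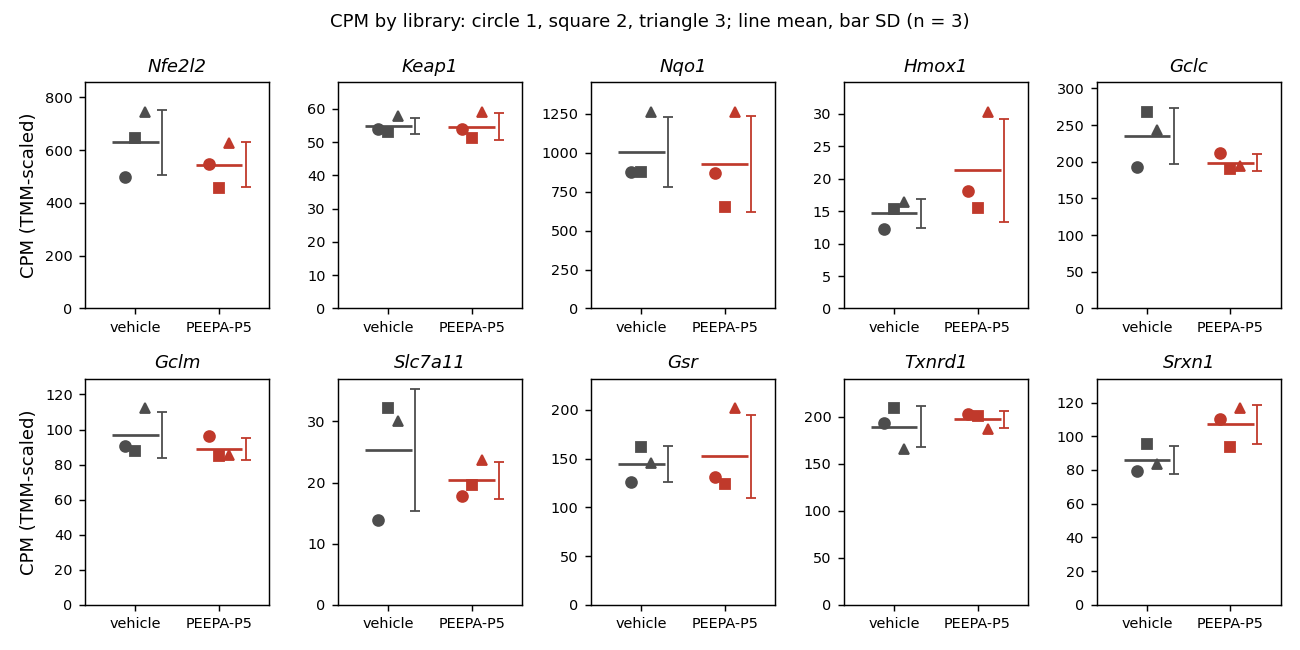
CPM of each of the 10 genes by library, with axes from 0, a line at the group mean and a bar for the SD (n = 3); circles, squares and triangles are libraries 1, 2 and 3. The groups overlap in all 10 panels, and the highest Hmox1 point is PEEPA-P5 3 at 30.3 CPM.

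**Figure D4:**
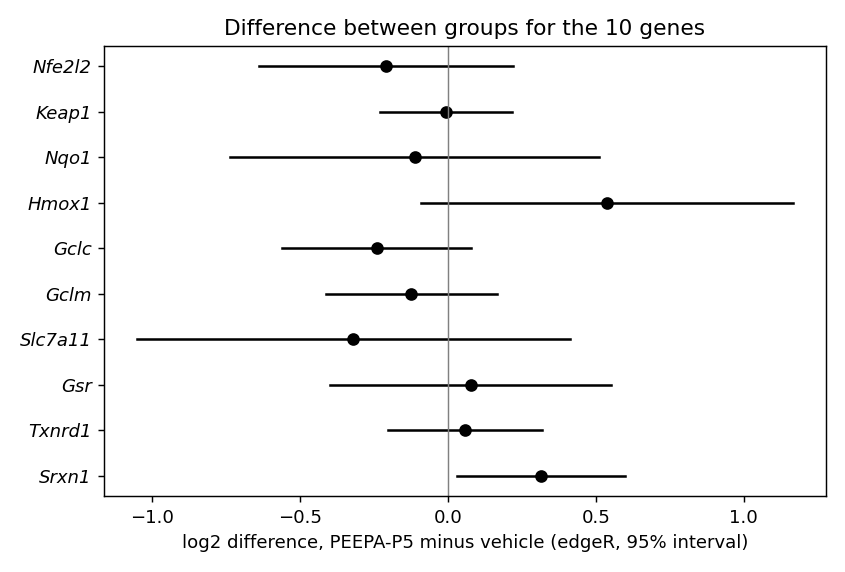
Log2 difference of PEEPA-P5 minus vehicle for each of the 10 genes, with its 95% interval from edgeR, not adjusted for the number of genes. The interval of Srxn1 runs from 0.03 to 0.60, and the other 9 intervals include 0.

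The libraries ordered the genes differently. PEEPA-P5 2 was the lowest library for 6 of the 10 (Nfe2l2, Keap1, Nqo1, Gclc, Gclm and Gsr) and the highest for 0. PEEPA-P5 3 was the highest for 4 (Keap1, Hmox1, Srxn1 and Gsr) and the lowest for 0. Vehicle 1 was the lowest for the remaining 3 besides Txnrd1, namely Hmox1, Srxn1 and Slc7a11. Vehicle 3 was the highest for Nfe2l2, Nqo1 and Gclm and the lowest for Txnrd1. It also had the highest sum of 7 markers listed for acid-secreting parietal cells, at 6873 CPM. That sum was 1013 and 3356 CPM in vehicle 1 and 2 and 113 to 876 CPM with PEEPA-P5. Cblif is on this list and also on that of 5 markers of zymogen-making chief cells. The chief cell sum was 84584 CPM in vehicle 3 and 9277 and 22866 CPM in vehicle 1 and 2. With PEEPA-P5 it was 2724 to 9949 CPM. The part of parietal and chief cells in the vehicle 3 values was not tested.

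The wider pathway was read from a list of 102 further genes, of which 99 were tested. EdgeR called 0 of the 99 (adjusted), as did DESeq2 and limma-voom. An unadjusted p under 0.05 was reached by 6 higher and 4 lower genes, or 10.1% in all against 12.1% of all tested genes. Groups did not overlap in 15 of 99, or 15.2% against 20.4%. The median log2 difference was 0.07, with 63 genes higher and 36 lower. This split depended on the scaling: it was 53 and 46 with upper quartile factors (median 0.025) and 40 and 59 on log2 TPM (median -0.032), where 42.2% and 34.8% of all tested genes were higher in place of 49.4%. Without PEEPA-P5 3 there were again 10 at an unadjusted p under 0.05, of which 8 were among the first 10. The count moved with the share over all genes: it was 20 (20.2% against 15.6%) after dropping vehicle 1, 13 (12.9% against 12.7%) for PEEPA-P5 2, 4 (3.96% against 5.72%) for vehicle 3, 3 (3% against 7.55%) for PEEPA-P5 1 and 2 (2% against 5.43%) for vehicle 2. Each of the genes named next had an adjusted p of at least 0.412 by edgeR.

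Among partners and brakes of NRF2, 9 of 14 tested genes were higher and 5 lower, against 7 and 7 on log2 TPM. Dpp3, a peptidase that competes with NRF2 for KEAP1, stood at 110 ± 6.68 CPM after PEEPA-P5 and 87.3 ± 9.75 CPM after vehicle (SD, n = 3 each, in this order from here on). Its log2 difference was 0.33, with a standard error of 0.11, and the groups did not overlap. Rbx1, the RING subunit of the ligase that degrades NRF2, was at 55.0 ± 4.65 against 44.7 ± 5.08 CPM, with 1 PEEPA-P5 and 1 vehicle library level at 50.2 CPM. Sqstm1, the autophagy receptor p62 that can sequester KEAP1, was the most abundant of the list and was at 265 ± 32.7 against 266 ± 12.8 CPM. Bach1, a repressor that occupies response elements of Hmox1, was at 13.5 ± 1.496 against 16.8 ± 4.73 CPM, with overlap. Rbx1 is named here after its values were seen.

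Of 30 tested genes of glutathione use and export, 20 were higher and 10 lower, with a median log2 difference of 0.08, but on log2 TPM 13 were higher and 17 lower. Groups did not overlap in 5 of the 30, or 16.7% against 20.4% of all tested genes. Gsta1 and Gsto1, a conjugating transferase and an omega-class transferase, were the most abundant at 7427 and 4984 TPM, but 92.9% of the sequence of Gsta1 also occurs in transcripts of other genes, so its value is uncertain. Mgst2, a microsomal transferase, was at 330 ± 38.9 against 241 ± 30.1 CPM and did not overlap between groups. The peroxidase genes Gpx1 and Gpx2, named after their values were seen, did not overlap either, with Gpx1 at 531 ± 32.2 against 375 ± 89.3 CPM and Gpx2 at 290 ± 44.0 against 226 ± 19.6 CPM. Gsta3 was at 105 ± 20.8 against 136 ± 19.4 CPM, with all PEEPA-P5 libraries below all vehicle libraries.

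The thioredoxin and peroxiredoxin list held 13 tested genes, 10 higher and 3 lower (6 and 7 on log2 TPM), with 0 at an unadjusted p under 0.05. Its most abundant gene, Prdx1, was at 617 ± 12.7 against 564 ± 32.5 CPM, and its log2 difference was 0.13, with a standard error of 0.10. Prdx4, a peroxiredoxin of the endoplasmic reticulum, was at 23.2 ± 3.17 against 27.9 ± 0.99 CPM. Txn1 was at 221 ± 25.4 against 206 ± 26.8 CPM, with overlap, and Txndc17 at 105 ± 10.6 against 90.5 ± 7.32 CPM.

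All 6 genes for NADPH-making enzymes had a higher mean with PEEPA-P5, with log2 differences from 0.03 to 0.45. This did not hold for 2 of them, G6pdx and Tkt, in other fits: without PEEPA-P5 3 they were at -0.09 and -0.03, and their mean TPM was lower with PEEPA-P5, at 156 against 164 for G6pdx and at 228 against 241 for Tkt. The furthest was Me1, malic enzyme, at 979.8, 814.5 and 675.5 CPM with vehicle and at 1081, 1115 and 1168 CPM with PEEPA-P5. All PEEPA-P5 libraries lay above all vehicle libraries, and the log2 difference was 0.45 with a standard error of 0.15. Without both libraries numbered 3 it was 0.29. Of the sequence of Me1, 30.0% also occurs in transcripts of other genes. Pgd, an enzyme of the pentose phosphate pathway, was at 609 ± 103 against 546 ± 41.7 CPM.

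Genes of heme and iron handling were lower in 6 of 8, and 3 of the 8 (37.5%) were lower at an unadjusted p under 0.05, against 6.14% of all tested genes. With 8 genes this is a description of the list. Fth1, the ferritin heavy chain, was at 517, 614 and 787 CPM with vehicle and at 447, 464 and 514 CPM with PEEPA-P5. Its partner Ftl1, the light chain, was at 3134 ± 437 against 2601 ± 387 CPM, an uncertain value because 57.7% of its sequence also occurs in other transcripts. The ferritin chains thus had means that differed in opposite directions, at log2 -0.43 and 0.27. Fech, which inserts iron into heme, was at 47.7 ± 2.41 against 58.6 ± 5.15 CPM. Slc48a1, a heme transporter named after its values were seen, was at 40.7 ± 7.86 against 55.3 ± 4.89 CPM. In Fth1, Fech and Slc48a1 the groups did not overlap, which is 37.5% of the list against 20.4% of all tested genes. In the same libraries the summed erythroid and parietal markers, given above, were each lower in all PEEPA-P5 libraries than in all vehicle libraries. Taken singly, 0 of 4 tested erythroid and 4 of 7 parietal markers had groups that did not overlap. The part of red cells and of parietal cells in the values of the heme and iron genes was not tested.

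Among 24 detoxification genes, 15 were higher, 9 lower and 0 at an unadjusted p under 0.05, and on log2 TPM 8 were higher and 16 lower. Aldh3a1, an aldehyde dehydrogenase of surface epithelia, had the lowest log2 difference of the whole list at -1.33 with a standard error of 0.66. Its vehicle 3 value of 2033 CPM stood apart from 475 and 495 CPM in vehicle 1 and 2 and from 274 to 589 CPM with PEEPA-P5. Without both libraries numbered 3 its log2 difference was -0.67. Ptgr1 and Akr1b8, reductases of reactive aldehydes and ketones, were the most abundant at 1101 and 673 TPM, and their log2 differences were 0.21 and 0.41 with overlap between groups. Ugt1a1 was at 6.29 ± 2.82 against 3.68 ± 1.25 CPM, again uncertain, as Ugt1a2 holds 58.5% of its sequence.

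Sod1, the cytosolic superoxide dismutase, was at 433 ± 50.7 against 382 ± 46.5 CPM. Cat, catalase, was at 83.2, 103 and 147 CPM with vehicle and at 80.7, 73.5 and 80.2 CPM with PEEPA-P5. All PEEPA-P5 libraries lay below all vehicle libraries, PEEPA-P5 1 only just below vehicle 1, and the log2 difference was -0.51 with a standard error of 0.20. Without both libraries numbered 3 it was -0.27.

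**Figure D5:**
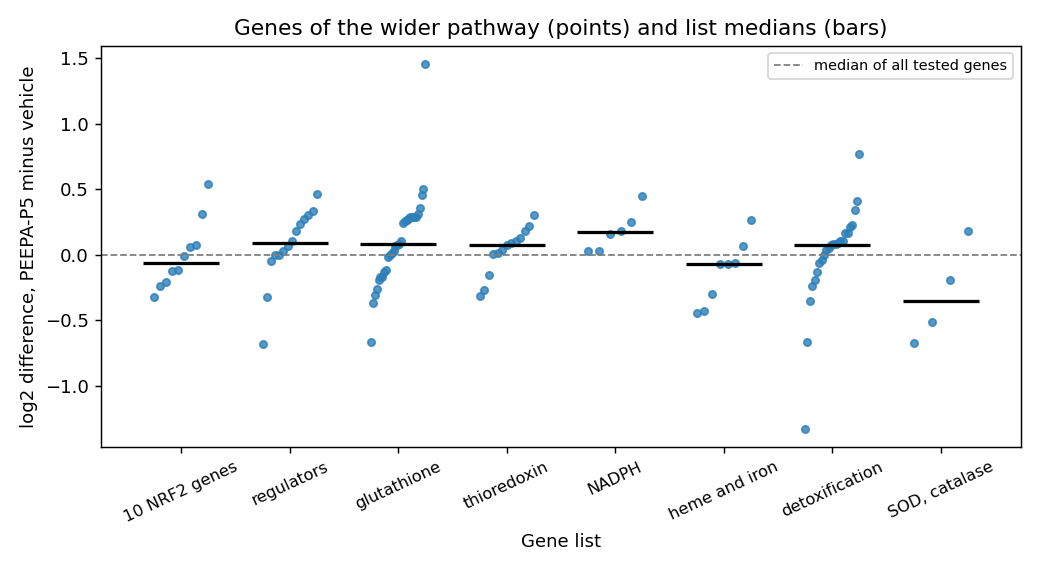
Log2 difference of PEEPA-P5 minus vehicle for each tested gene (points) of the 10 NRF2 genes and of 7 lists of the wider pathway, with list medians as bars and the median of all tested genes as a dashed line. List medians lie between -0.35 for superoxide dismutases and catalase and 0.17 for NADPH-making enzymes, and no point passed the adjusted threshold.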

How the data were processed

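Total RNA was made into Illumina TruSeq libraries, per the labels' protocols. The submitters' processing notes name Bowtie2 2.2.5, RSEM 1.2.12 and the build mm9, without settings or strand. For each gene and library the authors deposited, per the file headers, an expected count, an FPKM and a TPM, and group means that were not used here. FPKM was deposited by the authors and not analysed. Of the deposited expected counts 9.82% were not whole, and all were rounded. The test was edgeR 4.0.16 under R 4.3.3 (TMM, its expression filter, robust quasi-likelihood, Benjamini-Hochberg over all tested genes at 0.05), after checks on simulated data. The 10 genes and all lists were chosen with earlier results of these data known. The text names, from each wider list, the 2 most abundant genes and those with the smallest p in each direction; the ratios were added after the values were seen. Alternatives used DESeq2 1.42.0, limma 3.58.1 (voom, and log2 TPM with pseudocounts of 1 and 0.1), other factors and filters, and left-out libraries. No pair of libraries was a duplicate (lowest chi-square per degree of freedom 13.3). Deviations from group means correlated at 0.254, 0.354 and 0.234 in the pairs numbered 1, 2 and 3, so the numbers, which the labels do not explain, were taken as possible pairs. Shared sequence was counted in 31-base stretches of GENCODE M21 transcripts. Promoters and gene values come from different builds, and no coordinate was converted.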

Additional observations from a re-analysis of the deposited data

How the results depend on the processing

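Over the 16 alternatives, the 160 log2 differences of the 10 genes gave 0 calls at an adjusted p under 0.05, and 144 kept their direction. Nfe2l2, Gclc and Slc7a11 stayed lower and Hmox1 and Srxn1 higher under every alternative. There were 16 reversals. Keap1 was at 0.0077 with no count filter and at 0.0011 with DESeq2. On log2 TPM with pseudocounts of 1 and 0.1, Txnrd1 was at -0.0348 and -0.0351 and Gsr at -0.0515 and -0.0522. Without both libraries numbered 3, Gclm was at 0.024 and Gsr at -0.17. With 1 library left out, Keap1 ran from -0.062 to 0.043, Nqo1 from -0.39 to 0.09, Txnrd1 from -0.030 to 0.13 and Gsr from -0.17 to 0.21. The number of the 10 genes whose groups did not overlap, 0 with all libraries, was 1 to 3 with 1 library left out, where 25% to 37.5% of all tested genes did not overlap, and 2 without both libraries numbered 3, where 42.7% did not. Over all genes, DESeq2 called 110 and edgeR 0 to 1 with a library left out, the 1 call without vehicle 1. With the replicate number as a block, edgeR called 0 genes, 0 of the 10 and 0 of the wider list, so the block changed no call. Srxn1 then had a log2 difference of 0.31 (adjusted p = 0.368). The unadjusted edgeR p of Srxn1 was 0.035 in the main fit, 0.070 with the block and 0.053 with upper quartile factors. It was 0.027 by DESeq2, 0.036 by limma-voom and 0.219 by limma on log2 TPM with a pseudocount of 1. With the core lengthened by a final A, 1 of 7 promoters held a match in place of 4, and 3.45% of all genes with a window in place of 14.0%. Each of the 10 genes had at least 212 counts in each library, and the 3 libraries per group limit the precision.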
